A study of Homo sapiens with 46 samples.

Results

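The integrated stress response is described here through 10 of its regulators and reporter genes: ATF4, ATF3, DDIT3, CEBPB, CEBPG, PPP1R15A, TRIB3, CHAC1, SESN2 and INHBE. They were taken by gene symbol. All 10 were found among the 61228 genes of the HCT116 table and among the 30160 genes of the HEK293 table. The gene expression data are 46 RNA sequencing libraries of human cell lines that lost Ku, the DNA end-binding pair of Ku70 and Ku80, in 3 different ways.

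HCT116 is a colon carcinoma line and HEK293 an embryonic kidney line. In the first way, HCT116 clones with Ku80 fused to an auxin-inducible degron (Ku80-AID) were given the auxin IAA at 100 µM together with doxycycline at 0.5 µg/mL. Control cultures had DMSO and no doxycycline. Loss of Ku80, IAA and doxycycline therefore cannot be told apart in these comparisons. IAA was given for 1 day (2 libraries), or for 2, 4 or 6 days (3 libraries each). DMSO was given for 1 day (2 libraries) or 2 days (3 libraries), so the IAA groups of 2, 4 and 6 days share the 2-day DMSO group. At 4 and 6 days, IAA and time in culture therefore cannot be told apart. A CDK4/6 inhibitor was given with IAA and doxycycline, or alone, for 2 days (2 libraries each) or 4 days (3 libraries each). Ku80-AID clones that also lacked MAVS (MAVS-/-), which relays signals from cytoplasmic RNA sensors, received IAA with doxycycline or DMSO for 4 days (3 libraries each). These are other clones than those with MAVS. In the second way, HCT116 Ku86flox/-:CreERT2 cells and Ku86flox/- cells without Cre received 50 nM 4-hydroxytamoxifen (4OHT) or ethanol for 4 days (2 libraries per group). Whether the 2 libraries of a group were separate cultures is not in the labels, and the spread behind their p-values may be technical. In the third way, HEK293 Ku70-/- clones Sa11, SB and TI carried doxycycline-inducible Ku70. They were sampled 8 days after doxycycline was withdrawn and in 1 µg/mL doxycycline, so the drug differs along with Ku70.

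The integrated stress response begins when 1 of a family of kinases phosphorylates the translation factor eIF2. General protein synthesis then drops, while translation of the transcription factor ATF4 rises. ATF4 and its partners switch on genes of amino acid supply, redox balance and cell death, and PPP1R15A (GADD34) feeds back by directing a phosphatase to eIF2. ATF4 protein is set largely by translation, which RNA levels do not measure.

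Library totals ran from 9.53 to 45.7 M (mega) counts in the degron libraries, from 13 to 17.6 M in the Ku86flox/- libraries and from 19.6 to 28.5 M in HEK293. XRCC5, which encodes Ku80, averaged 27.8 ± 4.12 CPM (counts scaled to a common library size) in 4OHT-treated Cre cells and 257 ± 1.47 CPM in their ethanol controls (SD, n = 2 each). XRCC6, which encodes Ku70, averaged 454 ± 137 CPM in HEK293 clones without doxycycline and 3000 ± 656 CPM with it (SD, n = 3 each). A degron acts on protein, so the XRCC5 transcript does not check those labels. Of 11 colon epithelial markers, 7 exceeded 1 CPM in a HCT116 group and 6 in a HEK293 group, and CDX1 was at 0 in both lines. Their summed CPM was 1651 to 4417 in HCT116 groups and 213 to 335 in HEK293 groups. Of 8 HEK293 markers, 6 exceeded 1 CPM in a HCT116 group and 5 in a HEK293 group, with summed CPM of 11.2 to 66.5 and 900 to 1098. The 10 blood and stromal markers summed to 17 to 74.5 CPM in HCT116 and 15.1 to 15.8 CPM in HEK293. All values are averages over a culture, so a change in the share of responding cells and a change in RNA per cell cannot be told apart.

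The DMSO groups of the degron clones did not start from 1 level. The 1-day libraries and the 2-day inhibitor libraries carry names in hours and come from clones 1 and 9. The other degron libraries with MAVS are named in days, and the MAVS-/- libraries carry no time in their names. In a comparison added after these levels were seen, 6 of 10 members were lower in 2-day than in 1-day DMSO cultures, against 22.1% of all 18877 genes tested (0 were higher, against 15.1%). The median member change was -0.92 and that of all genes 0.00 on the log2 scale. DDIT3 had 5.83, 7.84 and 5.84 CPM in the 2-day DMSO libraries of clones 1, 7 and 9, against 13.7 and 15.5 CPM in the 1-day DMSO libraries of clones 1 and 9 (log2 change -1.16 ± 0.25 SE, edgeR adjusted p = 0.000729). ATF4 had 215, 260 and 251 CPM after 2 days of DMSO, against 459 and 404 CPM after 1 day (-0.83 ± 0.16, edgeR adjusted p = 0.000238). PPP1R15A (-1.01 ± 0.25), ATF3 (-1.11 ± 0.39) and CEBPG (-0.53 ± 0.17) were also lower, as was INHBE, and none of these groups overlapped. The count was 3 without the 1-day library of clone 9, where PPP1R15A (-0.84), ATF3 (-0.97) and CEBPG (-0.51) lost their calls. ATF3 and CEBPG also lost theirs without the 1-day library (-1.14 and -0.43) or the 2-day library of clone 1 (-1.03 and -0.43), and ATF3 without the 2-day library of clone 9 (-0.88). Without the 2-day library of clone 7, CHAC1 was called lower (-1.68). On the deposited TPM values the median of all genes was itself shifted by 0.32 in this comparison (and by -0.36 for the inhibitor at 2 days), and limma on log2(TPM + 1) called 2 members, of which CEBPB was higher by 0.69 (adjusted p = 0.0029) against -0.02 ± 0.22 in edgeR. Whether culture time, library set or processing separates the DMSO groups cannot be told apart.

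INHBE, a subunit of the activin family of secreted ligands, marks the same division. It had 19 to 32 counts in each of the 8 libraries named in hours, whatever the treatment. It had 0 or 1 count in each of the 18 other degron libraries with MAVS, and 1 to 6 counts in the MAVS-/- libraries. No fold is given for INHBE against the groups named in days, which lie at or near 0.

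**Figure D1:**
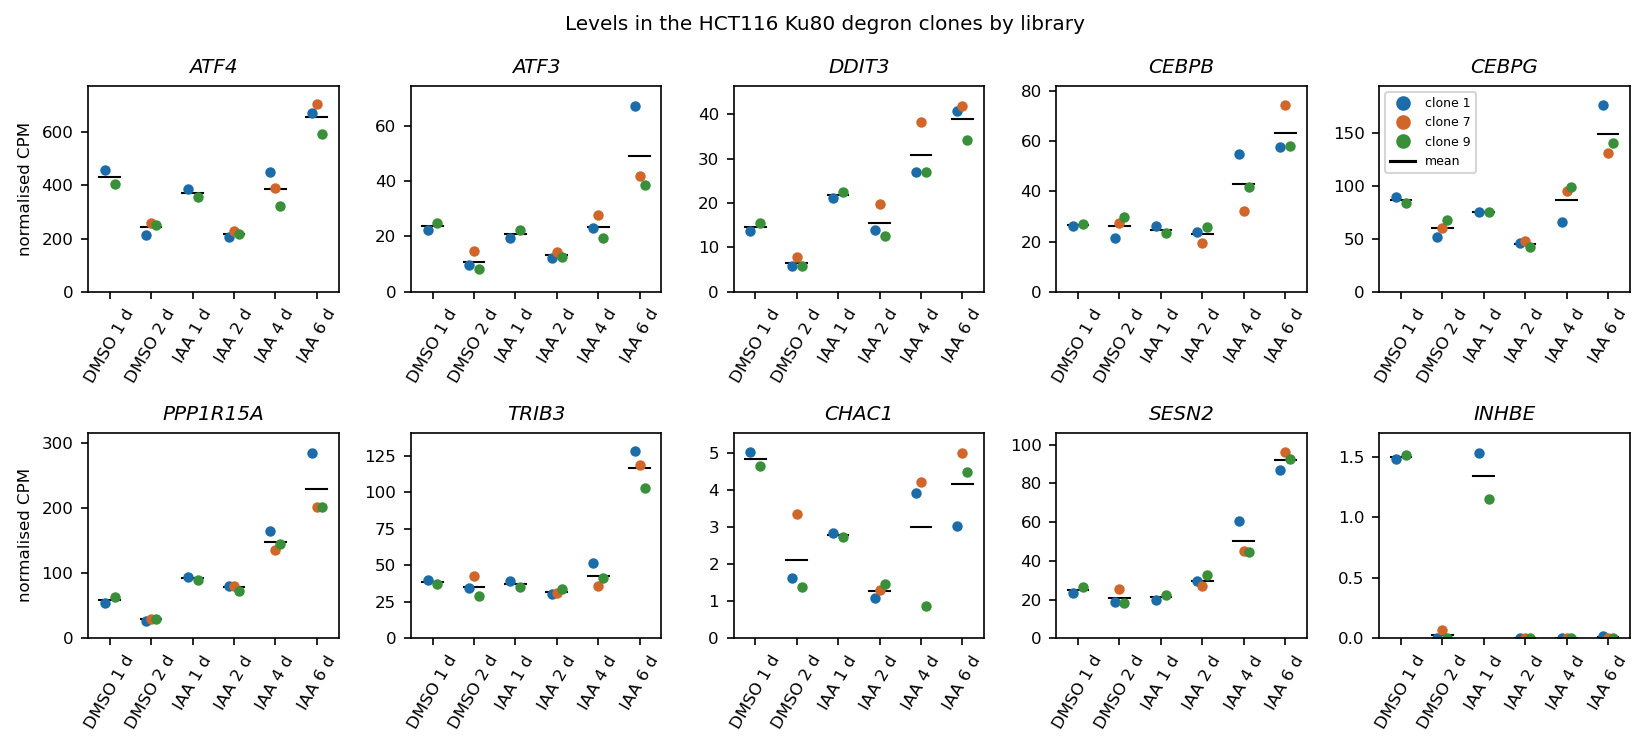
Normalised CPM (y axis, from 0) of the 10 genes in the HCT116 Ku80-AID clones, 1 point per library and a line for each group mean, for DMSO at 1 and 2 days and IAA with doxycycline at 1, 2, 4 and 6 days. DDIT3, PPP1R15A and SESN2 climb from 2 to 6 days of IAA, ATF4, ATF3, CEBPB, CEBPG and TRIB3 are highest at 6 days, and INHBE is near 0 outside the 1-day libraries.

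Promoter sequences are shown for the 4 members whose window from 250 bases before to 50 bases after a RefSeq start holds a binding element of the pathway's transcription factors. Windows were listed for 9 of the 10 members, INHBE being the one not matched. The 8-letter composite element of ATF4 and C/EBP proteins was searched on both strands as TGATGNAA, where N is any base. It lies in windows of ATF3, CHAC1 and CEBPG, which is 3 of 9 members, and in 4.46% of the 27305 genes listed. The cyclic AMP response element TGACGTCA, which reads the same on both strands, lies in the window of PPP1R15A and in 2.25% of genes. A match is a description of the letters, not a measured site. The stretches below are from GRCh38.p14, plus strand, with the element in capitals.
ATF3, chr1:212565170-212565269, element 191 bases before the start: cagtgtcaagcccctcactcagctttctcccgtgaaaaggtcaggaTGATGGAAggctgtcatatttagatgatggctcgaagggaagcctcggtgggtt
CEBPG, chr19:33374025-33374124, element 42 bases before the start: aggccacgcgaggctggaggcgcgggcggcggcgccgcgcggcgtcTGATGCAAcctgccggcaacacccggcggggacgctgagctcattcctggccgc
CHAC1, chr15:40953221-40953315, element on the opposite strand, 209 bases before the start: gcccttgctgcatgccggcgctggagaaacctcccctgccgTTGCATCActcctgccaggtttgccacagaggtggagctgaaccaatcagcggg
PPP1R15A, chr19:48872317-48872416, element 58 bases before the start: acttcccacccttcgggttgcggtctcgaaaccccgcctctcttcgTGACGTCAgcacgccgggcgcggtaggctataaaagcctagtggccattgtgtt

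In the degron clones, DDIT3 and PPP1R15A were the members that passed the test at 2 days of IAA, and by 6 days 8 of 10 had risen. DDIT3 encodes CHOP, a C/EBP family factor linked to cell death, and PPP1R15A the inducible eIF2 phosphatase subunit. At 1 day none of the 10 was called by edgeR, where 0.117% of genes were higher and 0.0689% lower. At an unadjusted p under 0.05, 2 members passed, and DESeq2 and limma also called 0. These 2 were PPP1R15A, with 94.4 and 89.4 CPM in IAA-treated clones 1 and 9 against 54.4 and 62.7 CPM in DMSO (0.65 ± 0.27, edgeR adjusted p = 0.555), and DDIT3, with 21.2 and 22.4 CPM against 13.7 and 15.5 CPM (0.58 ± 0.26, edgeR adjusted p = 0.635). Both were higher in 2 of 2 clones with no overlap, and a fit on the compared groups alone called both, with edgeR adjusted p = 0.0106 and 0.0223. ATF4, ATF3, CEBPB, CEBPG, CHAC1 and SESN2 were lower in 2 of 2 clones, also with no overlap, and none was called. The median change was -0.17 for the members and 0.01 for all genes. The share of all genes without overlap was not computed.

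At 2 days of IAA, 2 members were higher and 0 lower, against 9.12% and 9.94% of all genes. PPP1R15A had 80.8, 80.8 and 73 CPM in IAA-treated clones 1, 7 and 9, against 26.9, 30.3 and 30.2 CPM in 2-day DMSO (1.42 ± 0.23, 2.68-fold, edgeR adjusted p = 6.57e-05). DDIT3 had 13.9, 19.8 and 12.6 CPM against 5.83, 7.84 and 5.84 CPM (1.24 ± 0.23, 2.36-fold, edgeR adjusted p = 0.000322). Every IAA library exceeded every 2-day DMSO library for both genes. Set against the 1-day DMSO group, neither was called (0.42 ± 0.25 and 0.08 ± 0.24), while ATF4 (-0.99 ± 0.16), CEBPG (-0.93 ± 0.17), CHAC1 (-1.92 ± 0.51) and INHBE were lower, where 21.6% of all genes were higher and 27.9% lower. Every comparison of a group named in days with 1-day DMSO crosses the library sets named in hours and in days. The INHBE call follows that division and is not read as a response to IAA. Against 2-day DMSO, SESN2 was also called without the DMSO library of clone 7 (0.68), with no count filter (0.52) and under limma (0.64). The fit on the compared groups alone called SESN2 higher (0.5, edgeR adjusted p = 0.0219) and CEBPG lower (-0.4, edgeR adjusted p = 0.0153). ATF4 itself had 206, 227 and 216 CPM at 2 days of IAA and changed by -0.16 ± 0.15 from 2-day DMSO (edgeR adjusted p = 0.523).

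At 4 days 7 of 10 members were higher and 0 lower, against 17.9% and 14.9% of all genes, and the median change was 0.70 for the members and 0.04 for all genes tested. ATF4 had 451, 390 and 321 CPM in IAA-treated clones 1, 7 and 9 (0.68 ± 0.15, edgeR adjusted p = 0.000729 against 2-day DMSO). PPP1R15A reached 164, 135 and 145 CPM (2.34 ± 0.23, 5.08-fold, edgeR adjusted p = 1.77e-08). DDIT3 reached 26.9, 38.2 and 27 CPM (2.23 ± 0.23, 4.69-fold, edgeR adjusted p = 3.14e-08). All 3 genes stood above all 2-day DMSO libraries. SESN2, a stress-induced inhibitor of mTORC1 signalling, rose by 1.26 ± 0.20. ATF3, a stress-induced repressor and activator of the same bZIP class, rose by 1.10 ± 0.35, and CEBPB and CEBPG, dimer partners of ATF4, by 0.71 ± 0.20 and 0.53 ± 0.16. TRIB3, a pseudokinase that restrains ATF4 and DDIT3 activity, CHAC1, which breaks down glutathione, and INHBE did not pass. CEBPG levels overlapped between the groups. Leaving out the clone 7 IAA library (0.96), or the DMSO library of clone 1 (1.02) or 9 (0.95), ended the ATF3 call. The CEBPB call ended without the clone 1 IAA library (0.51). The CEBPG call ended without the clone 7 (0.45) or clone 9 (0.42) IAA library, or without the clone 1 DMSO library (0.43). Under limma neither CEBPB (0.34, adjusted p = 0.106) nor CEBPG (0.36, adjusted p = 0.0613) was called, and the edgeR fit on the compared groups alone lost CEBPG (0.51, adjusted p = 0.0544). Against 1-day DMSO, DDIT3 (1.07 ± 0.25), PPP1R15A (1.34 ± 0.26), SESN2 (1.01 ± 0.23) and CEBPB (0.69 ± 0.22) were still higher, while ATF4 (-0.16 ± 0.16), ATF3 (-0.01 ± 0.38) and CEBPG (0.00 ± 0.17) were not called, where 25.2% of all genes were higher and 29.2% lower.

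At 6 days 8 of 10 members were higher and 0 lower, against 17.8% and 17.5% of all genes, with a median of 1.58 for the members and 0.00 for all genes. ATF4 had 671, 704 and 592 CPM in IAA-treated clones 1, 7 and 9, against 215, 260 and 251 CPM in 2-day DMSO (1.44 ± 0.15, 2.71-fold, edgeR adjusted p = 2.97e-08). TRIB3 had 128, 119 and 103 CPM, against 34.2, 42.8 and 28.9 CPM in 2-day DMSO (1.72 ± 0.26, edgeR adjusted p = 1.13e-05). SESN2 had 87.2, 96.4 and 92.5 CPM, against 18.9, 25.6 and 18.1 CPM (2.13 ± 0.20, edgeR adjusted p = 6.61e-09). Every IAA library was above every 2-day DMSO library for each of these genes. PPP1R15A (2.98 ± 0.24), DDIT3 (2.57 ± 0.23), ATF3 (2.16 ± 0.36), CEBPG (1.32 ± 0.16) and CEBPB (1.27 ± 0.20) rose as well. CHAC1 was higher by 0.95 ± 0.45 in 3 of 3 clones but did not pass (edgeR adjusted p = 0.105), except without the DMSO library of clone 7 (1.46, edgeR adjusted p = 0.0373). The same 8 genes were higher against 1-day DMSO, with ATF4 at 0.60 ± 0.17 and PPP1R15A at 1.97 ± 0.26, and INHBE was lower, where 22.6% of all genes were higher and 29.1% lower. This comparison crosses the library sets too, and INHBE follows that division.

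The steps between IAA groups do not use a DMSO group, so days of IAA and time in culture cannot be told apart in them. From 2 to 4 days, 6 members rose (4.73% of all genes rose and 3.44% fell): ATF4, DDIT3, CEBPB, CEBPG, PPP1R15A and SESN2, by 0.76 to 0.99. From 4 to 6 days, 5 rose (5.36% of all genes rose and 7.11% fell): ATF4, ATF3, CEBPG, TRIB3 and SESN2. TRIB3 rose most in the later step, by 1.44 ± 0.26 (edgeR adjusted p = 0.00107), after 0.43 ± 0.26 in the earlier one. DDIT3 rose by 0.99 ± 0.22 in the earlier step and differed by 0.34 ± 0.21 in the later one (edgeR adjusted p = 0.297). With the clone as a block, ATF3 was also called in the earlier step (0.83, edgeR adjusted p = 0.0294) and PPP1R15A in the later one (0.63, edgeR adjusted p = 0.0268). Fits on the compared groups alone called 3 and 1 members: in the earlier step DDIT3 (0.96), CEBPB (0.88) and SESN2 (0.73) lost their calls, and in the later step ATF4 (0.74), ATF3 (1.05), CEBPG (0.77) and SESN2 (0.86) lost theirs. Limma did not call CEBPB (0.37) or SESN2 (0.40) in the earlier step or ATF3 (0.79) in the later one. The ATF3 call in the later step was lost without the 6-day library of clone 1 (0.76) or the 4-day library of clone 1 or 9 (1.08 and 0.95). In the earlier step the SESN2 call was lost without the 2-day library of clone 1 or 7 (0.75 and 0.68) or the 4-day library of clone 1 (0.61), the PPP1R15A call without the 2-day library of clone 7 or 9 (0.94 and 0.87), and the DDIT3 call without that of clone 9 (0.86). CHAC1 was called in the earlier step without the 4-day library of clone 9 (1.67). In the later step CEBPB (0.80) and PPP1R15A (0.74) were called without the 4-day library of clone 1, and PPP1R15A without the 6-day library of clone 7 (0.72).

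**Figure D2:**
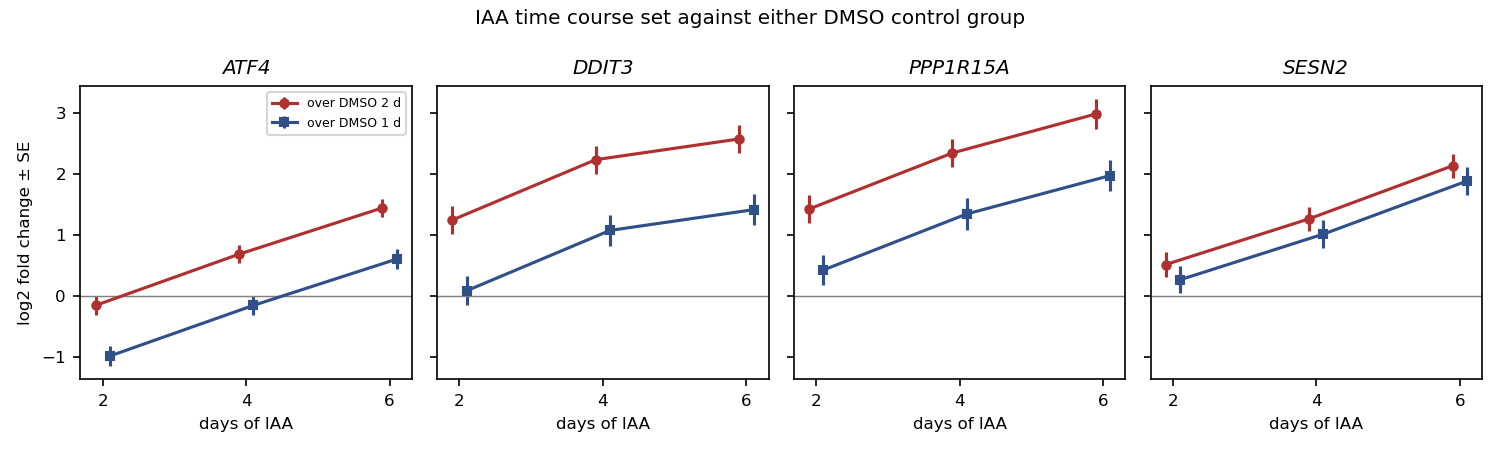
Log2 fold change ± SE (y axis) of ATF4, DDIT3, PPP1R15A and SESN2 at 2, 4 and 6 days of IAA (x axis), set against 2-day DMSO (red circles) or 1-day DMSO (blue squares). The choice of DMSO group moves ATF4, DDIT3 and PPP1R15A by about a log2 unit and SESN2 by less, so that ATF4 at 4 days is 0.68 on one and -0.16 on the other. The 1-day DMSO libraries are named in hours and the others shown in days.

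DDIT3 shares exon sequence with MARS1 and MBD6 on the opposite strand and with a gene model known by a clone name on its own strand, and CEBPB with CEBPB-AS1 on the opposite strand. The gene model on the strand of DDIT3 was not analysed here, and the strand setting of the counting is not given in the sources used here. MBD6, a methyl-CpG-binding domain gene, was higher at 4 and 6 days of IAA (1.02 ± 0.27 and 1.10 ± 0.27). MARS1, the methionyl-tRNA synthetase, was lower at 4 days (-0.35 ± 0.12) and not called at 6 days (0.17 ± 0.12). CEBPB-AS1 changed by 1.90 ± 1.22 and 1.17 ± 1.23 and was not called. Values of DDIT3 and CEBPB are uncertain to that extent, and the part of MBD6 reads in DDIT3 was not tested. The 4 ATF4 pseudogenes in the HCT116 table held at most 0.257% of the ATF4 counts of a library.

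Other genes that ATF4 is known to switch on moved in both directions with IAA. At 4 days of IAA 3 of 41 tested other ATF4 target genes were higher and 21 lower (median -0.45), beside 17.9% and 14.9% of all genes. STC2, a secreted glycoprotein, rose by 1.13 ± 0.27 and GDF15, a stress cytokine, by 0.81 ± 0.18. PHGDH and PSAT1, enzymes of serine synthesis, fell by 2.76 ± 0.20 and 2.18 ± 0.18 on the log2 scale, and ASNS, the asparagine synthetase, fell by 2.17 ± 0.24. At 2 days 1 was higher and 20 lower (median -0.51), beside 9.12% and 9.94% of all genes. From 4 to 6 days 15 of the 41 rose and 1 fell (median 0.44), beside 5.36% and 7.11% of all genes, among them SLC3A2, a subunit of amino acid exchangers (0.96 ± 0.19), and DDIT4, an mTORC1 inhibitor (1.04 ± 0.26). At 6 days 7 were higher and 9 lower against 2-day DMSO, beside 17.8% and 17.5% of all genes.

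Of 17 genes of the eIF2 kinases, eIF2 and its exchange factor, 3 were higher and 7 lower at 4 days of IAA, beside 17.9% and 14.9% of all genes. EIF2AK2, the RNA-activated kinase PKR and an interferon-stimulated gene, rose by 1.37 ± 0.13, and EIF2AK3, the ER stress kinase PERK, by 0.95 ± 0.17. EIF2AK1, the heme-regulated kinase, fell by 0.68 ± 0.10 on the log2 scale. EIF2AK4, the amino acid sensor GCN2, changed by -0.11 ± 0.10 (edgeR adjusted p = 0.431). The genes of ATF6 and XBP1, which answer protein misfolding in the ER, gave 5 higher and 2 lower of 18 at 4 days. At 6 days they gave 9 higher and 0 lower, beside 17.8% and 17.5% of all genes, with DNAJB9 at 2.08 ± 0.17, XBP1 at 1.14 ± 0.19 and HSPA5 (BiP) at 1.00 ± 0.16. Among paralogs of the members, 3 of 12 tested were higher and 5 lower at 6 days, against those same shares. SESN1 and SESN3, the relatives of SESN2, fell by 0.82 ± 0.21 and 1.43 ± 0.34 on the log2 scale, and PPP1R15B, the constitutive paralog of PPP1R15A, fell by 0.35 ± 0.09 at 4 days.

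With the CDK4/6 inhibitor, which arrests cells in G1, IAA raised DDIT3, PPP1R15A and SESN2 at 4 days. There 3 of 10 were higher and 0 lower in inhibitor with IAA over inhibitor alone, against 6.13% and 5.1% of all genes. DDIT3 had 12.8, 11.4 and 9.48 CPM in inhibitor with IAA in clones 1, 7 and 9, against 4.4, 4.47 and 3.32 CPM in inhibitor alone (1.47 ± 0.23, edgeR adjusted p = 0.000123). PPP1R15A had 76.5, 71.8 and 56.9 CPM against 28.5, 35.8 and 29.4 CPM (1.13 ± 0.23, edgeR adjusted p = 0.00132). SESN2 had 45, 37.5 and 38.1 CPM against 20.2, 24.2 and 29 CPM (0.71 ± 0.20, edgeR adjusted p = 0.0172). None of these groups overlapped. The SESN2 call was lost without the library of clone 1 in either arm (0.60 for each) or the inhibitor library of clone 7 (0.70). ATF4 differed by 0.06 ± 0.15, and its levels overlapped between the arms. The response to IAA with the inhibitor minus that without it was called for PPP1R15A alone (-1.21 ± 0.32, edgeR adjusted p = 0.0272), while 2.19% of all genes differed upward and 2.5% downward. That call was lost when any of 5 libraries was left out, namely any 2-day DMSO library, the inhibitor library of clone 7 or the combined library of clone 9, with values from -1.25 to -1.10. The response with the inhibitor uses a 4-day inhibitor group as its control and the response without it a 2-day DMSO group, so inhibitor and age of the control cannot be told apart. With 1-day DMSO in its place the PPP1R15A difference was -0.21 ± 0.33 (edgeR adjusted p = 0.701), 0 members were called, and 15.8% of all genes differed upward and 16.1% downward. Without the IAA library of clone 9, ATF4 was called as well (-0.74). The differences for ATF4 and DDIT3 were -0.62 ± 0.21 (edgeR adjusted p = 0.0864) and -0.76 ± 0.33 (edgeR adjusted p = 0.194).

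At 2 days with the inhibitor, edgeR called 0 members for IAA, against 0.297% of genes higher and 0.117% lower. At an unadjusted p under 0.05 it had 2, DDIT3 at 0.84 ± 0.27 and PPP1R15A at 0.58 ± 0.27, and DESeq2 and limma called 0. The difference from the response without inhibitor at 2 days was called for 0 members and for 0% of all genes in each direction, with 1 member at an unadjusted p under 0.05 and 0 by DESeq2 and limma. With 1-day DMSO as the control of that response, ATF4 (0.99 ± 0.24), CEBPG (0.93 ± 0.26) and INHBE differed upward, beside 17% of all genes upward and 9.18% downward. The response without inhibitor then crosses the library sets named in hours and in days.

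The inhibitor alone was set against 2-day DMSO, the group that the IAA comparisons also use. For the inhibitor at 4 days, drug and time in culture therefore cannot be told apart. At 4 days edgeR called 0 members (3.85% of genes higher and 3.84% lower), 3 passed at an unadjusted p under 0.05, and limma called 3 lower and DESeq2 0. With the clone as a block, DDIT3 (-0.68, edgeR adjusted p = 0.0358) and TRIB3 (-0.72, edgeR adjusted p = 0.0205) were lower. Against 1-day DMSO, which crosses the library sets named in hours and in days, 8 members were lower and 0 higher, INHBE among them. There 18.1% of all genes were higher and 24.8% lower. At 2 days PPP1R15A (0.92 ± 0.25) and INHBE were called higher, against 20.8% of genes higher and 13.6% lower. That comparison crosses the library sets named in hours and in days. Against 1-day DMSO from its own set, PPP1R15A changed by -0.09 ± 0.27, INHBE by 0.31 ± 0.74 and ATF4 by -0.74 ± 0.18 (edgeR adjusted p = 0.019), where 1.95% of all genes were higher and 1.68% lower. Against 2-day DMSO with the clone as a block, ATF3 (0.87, edgeR adjusted p = 0.0182) and DDIT3 (0.58, edgeR adjusted p = 0.0441) were called higher too. Against 1-day DMSO they changed by -0.38 ± 0.42 and -0.71 ± 0.27, and neither was called. Without the inhibitor library of clone 9, PPP1R15A was not called against 2-day DMSO (0.62).

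In MAVS-/- clones IAA raised 5 of 10 members at 4 days, against 4.73% of all genes higher and 3.15% lower, and 0 fell. DDIT3 had 31.2, 60.5 and 35.8 CPM in IAA-treated clones 1, 13 and 15, against 10, 10.2 and 10.2 CPM in their DMSO controls (2.06 ± 0.22, edgeR adjusted p = 1.72e-06). PPP1R15A had 84.7, 198 and 79.8 CPM against 47, 45.7 and 43.1 CPM (1.42 ± 0.23, edgeR adjusted p = 0.000224). The groups did not overlap, and the IAA library of clone 13 stood above the other 2 for every member but INHBE. TRIB3 had 33.2, 104 and 36.1 CPM with IAA in clones 1, 13 and 15, against 29.7, 32.2 and 27 CPM with DMSO. Without both libraries of clone 13, DDIT3 (1.73 ± 0.23) and PPP1R15A (0.87 ± 0.18) were still called, while SESN2 (0.53 ± 0.17, edgeR adjusted p = 0.0976), CEBPG (0.34 ± 0.18, 0.385) and TRIB3 (0.29 ± 0.18, 0.518) were not. The fit on the compared groups alone kept DDIT3 only. It lost PPP1R15A (1.44 ± 0.35, edgeR adjusted p = 0.0566), SESN2 (0.95 ± 0.29, 0.0925), CEBPG (0.53 ± 0.18, 0.114) and TRIB3 (0.99 ± 0.43, 0.202). The calls of CEBPG and TRIB3 were also lost when only the IAA-treated library of clone 13 was omitted (0.31 and 0.23), and without the DMSO library of clone 1 (0.53 and 0.96), 13 (0.54 and 1.02) or 15 (0.48 and 0.89). Omitting the IAA-treated library of clone 1 or 15 made ATF4 a call (0.50 and 0.55).

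The response in MAVS-/- clones minus that in clones with MAVS was called for 0 members by edgeR, where 2.46% of genes differed upward and 2.39% downward, with 2 members at an unadjusted p under 0.05 and 1 called by each of DESeq2 and limma. PPP1R15A differed by -0.93 ± 0.32 (edgeR adjusted p = 0.0919), and with the clone as a block by -1.06 (edgeR adjusted p = 0.0207). Without clone 13 the responses of PPP1R15A (-1.48 ± 0.23, edgeR adjusted p = 0.000348), ATF4 (-0.65 ± 0.16, 0.0187) and CEBPB (-1.04 ± 0.28, 0.03) were smaller in MAVS-/- clones. Without its IAA library alone, 4 were called: PPP1R15A (-1.48), ATF4 (-0.61), ATF3 (-1.51) and SESN2 (-0.76). DDIT3 differed by -0.17 ± 0.31 with clone 13 and by -0.50 ± 0.30 without it, and was called in neither. EIF2AK2 changed by -0.10 ± 0.13 with IAA in MAVS-/- clones, a difference of -1.47 ± 0.18 from clones with MAVS (edgeR adjusted p = 1.35e-05). The clones with MAVS were set against 2-day DMSO and those without it against 4-day DMSO. The MAVS-/- libraries also come from other clones and carry no time in their names. Genotype, clone, library set and age of the control therefore cannot be told apart. Set against 1-day DMSO instead, the response of DDIT3 was larger in MAVS-/- clones (0.99 ± 0.32, edgeR adjusted p = 0.0172) and that of PPP1R15A differed by 0.08 ± 0.33. INHBE was then called too, and 20.1% of all genes differed upward and 15.8% downward. The 1-day DMSO control comes from the library set named in hours, which INHBE follows.

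**Figure D3:**
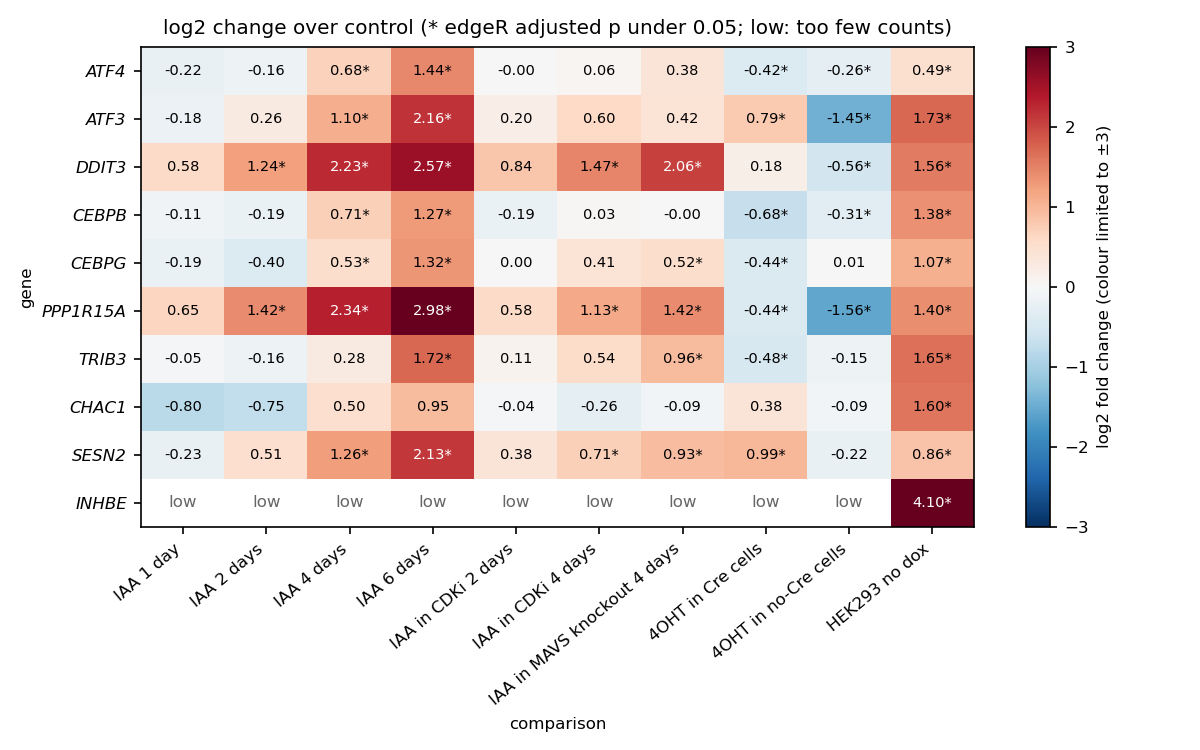
Log2 fold change of the 10 genes (rows) in 10 comparisons (columns), red for higher and blue for lower, with an asterisk at an edgeR adjusted p under 0.05. INHBE, at 0 to 32 counts per degron library, is marked as low in HCT116. DDIT3 and PPP1R15A lead in the degron columns, the HEK293 column is red throughout, and the Cre column has asterisks on ATF3 and SESN2 above 0 and on 5 members below it.

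In Cre cells, where 4OHT triggers excision of the floxed Ku86 allele, members moved in both directions. With 4OHT, 2 of 9 tested members were higher and 5 lower, against 26.4% of all genes higher and 27.5% lower, and INHBE had too few counts to be tested. SESN2 had 60.9 and 62.7 CPM in 4OHT-treated Cre cells, against 31.3 and 30.7 CPM in ethanol (0.99 ± 0.07, edgeR adjusted p = 3.37e-08). ATF3 had 59.3 and 54.8 CPM against 33.3 and 32.8 CPM (0.79 ± 0.09, edgeR adjusted p = 6.18e-06). ATF4 had 260 and 261 CPM against 356 and 341 CPM (-0.42 ± 0.05, edgeR adjusted p = 5.75e-06). These groups did not overlap. CEBPB (-0.68 ± 0.09), TRIB3 (-0.48 ± 0.08), CEBPG (-0.44 ± 0.07) and PPP1R15A (-0.44 ± 0.07) also fell. DDIT3 changed by 0.18 ± 0.12 and CHAC1 by 0.38 ± 0.18, and neither passed.

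In cells without Cre, 4OHT lowered 5 of 9 members and raised 0, against 6.44% of all genes lower and 7.26% higher. PPP1R15A had 32.3 and 37.4 CPM in 4OHT-treated cells without Cre, against 97.4 and 108 CPM in ethanol (-1.56 ± 0.08, edgeR adjusted p = 1.44e-07). ATF3 had 15.8 and 20.4 CPM against 49.7 and 49.2 CPM (-1.45 ± 0.10, edgeR adjusted p = 1.71e-06). The groups did not overlap for either gene. DDIT3 (-0.56 ± 0.12), CEBPB (-0.31 ± 0.08) and ATF4 (-0.26 ± 0.05) fell by less. Limma did not call DDIT3 (-0.43, adjusted p = 0.0901), CEBPB (-0.11, adjusted p = 0.426) or ATF4 (-0.12, adjusted p = 0.196). The fit on the compared groups alone lost CEBPB (-0.32, edgeR adjusted p = 0.0597). Without the first 4OHT library the DDIT3 and CEBPB calls were lost (-0.45 and -0.23), and without the second ethanol library that of CEBPB (-0.20). Without the first ethanol library TRIB3 (-0.28) and SESN2 (-0.27) were called lower.

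The 4OHT response in Cre cells minus that in cells without Cre was higher for 4 of 9 members and lower for 3, against 18.8% and 22.4% of all genes. ATF3 differed by 2.24 ± 0.13 (edgeR adjusted p = 2.9e-08), SESN2 by 1.22 ± 0.10, PPP1R15A by 1.12 ± 0.11 and DDIT3 by 0.73 ± 0.17. For ATF3 (-1.45), PPP1R15A (-1.56) and DDIT3 (-0.56) that difference came with a fall in cells without Cre, and PPP1R15A fell in both. CEBPG (-0.45 ± 0.09), CEBPB (-0.37 ± 0.12) and TRIB3 (-0.33 ± 0.11) differed downward. ATF4 differed by -0.16 ± 0.07 (edgeR adjusted p = 0.0686). Limma called it lower (-0.36, adjusted p = 0.00563), on TPM values where the median of all genes was itself -0.18. The CEBPB call was lost without either 4OHT Cre library (-0.34 and -0.38) or the first ethanol Cre library (-0.33), the first ethanol library without Cre (-0.25) or the second 4OHT library without Cre (-0.27). The TRIB3 call was lost without any one of the Cre libraries (-0.36 to -0.27), either 4OHT library without Cre (-0.32 and -0.34) or the first ethanol library without Cre (-0.20), and under DESeq2 (-0.31). ATF4 was called without the second ethanol library without Cre (-0.17), and CHAC1 without the second 4OHT library without Cre (0.78). Among other ATF4 target genes in this difference, 12 of 40 were higher and 15 lower, beside the 18.8% and 22.4% above, with GDF15 at 2.04 ± 0.10 and PHGDH at -2.27 ± 0.13.

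**Figure D4:**
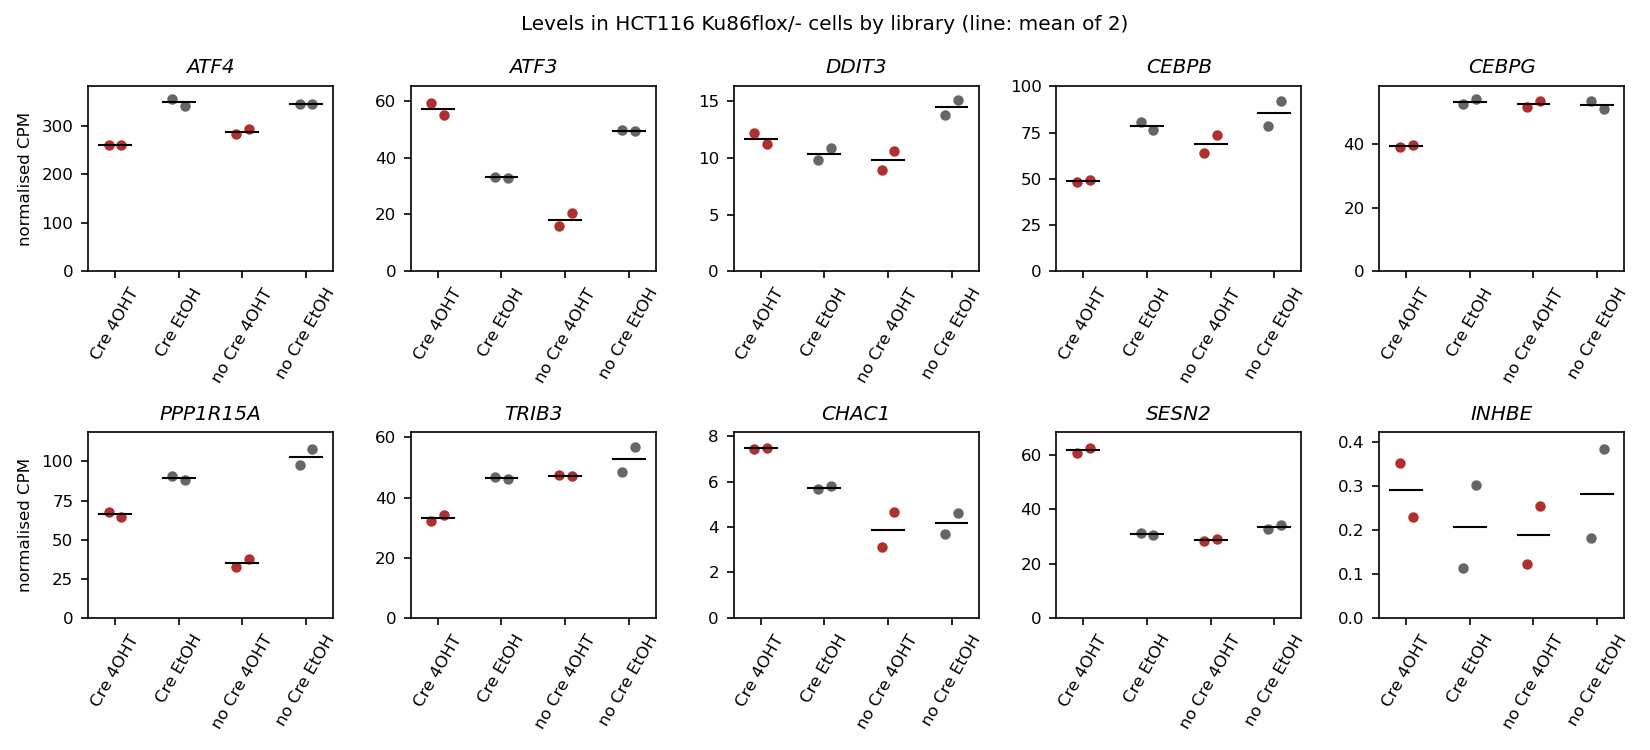
Normalised CPM (y axis, from 0) of the 10 genes in HCT116 Ku86flox/- cells with or without Cre, 4OHT in red and ethanol in grey, 1 point per library and a line for the mean of 2. SESN2 stands out in 4OHT-treated Cre cells at 60.9 and 62.7 CPM, and ATF3 and PPP1R15A are lowest in 4OHT-treated cells without Cre.

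In HEK293 clones 8 days after doxycycline withdrawal, 10 of 10 members were called higher. Each was higher in 3 of 3 clones with no overlap between arms, and the share of all genes without overlap was not computed. Of all 15549 genes tested, 11.1% were called higher and 10.9% lower, and the median change was 1.48 for the members and 0.00 for all genes. INHBE moved most, with 38.9, 100 and 105 CPM without doxycycline in clones SB, Sa11 and TI, against 7.74, 2.92 and 3.48 CPM with it (4.10 ± 0.46, 17.2-fold, edgeR adjusted p = 0.00138). ATF3 had 114, 125 and 158 CPM against 41.6, 41.5 and 36.7 CPM (1.73 ± 0.15, edgeR adjusted p = 0.000656). CHAC1 had 11.4, 17.9 and 12.1 CPM against 5.57, 4.74 and 3.41 CPM (1.60 ± 0.27, edgeR adjusted p = 0.00465). Clone SB had the smallest ratio between its arms for 9 of the 10 members, and clone TI for CEBPB. TRIB3 (1.65 ± 0.22), DDIT3 (1.56 ± 0.17), PPP1R15A (1.40 ± 0.19), CEBPB (1.38 ± 0.15) and CEBPG (1.07 ± 0.17) rose as well. SESN2 rose by 0.86 ± 0.25 (edgeR adjusted p = 0.0381) and ATF4 by 0.49 ± 0.15 (edgeR adjusted p = 0.0434), and these 2 calls were near the threshold. Omitting any 1 library except the SB library taken after withdrawal ended the SESN2 call (0.59 to 0.92) and the ATF4 call (0.40 to 0.53). MBD6 and MARS1, which overlap DDIT3, changed by -0.13 ± 0.27 and 0.32 ± 0.17 and were not called.

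Here 12 of 42 other ATF4 target genes were higher and 1 lower (median 0.26), beside 11.1% and 10.9% of all genes, led by FGF21, a secreted metabolic hormone (2.94 ± 0.60), CTH, which makes cysteine (1.71 ± 0.31), and SLC3A2 (1.16 ± 0.15). Of the ATF6 and XBP1 genes 0 of 18 were higher and 5 lower, with the protein disulfide isomerases PDIA6 and PDIA4 at -0.98 ± 0.13 and -0.78 ± 0.14. EIF2AK2 changed by 0.01 ± 0.15 (edgeR adjusted p = 0.968).

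**Figure D5:**
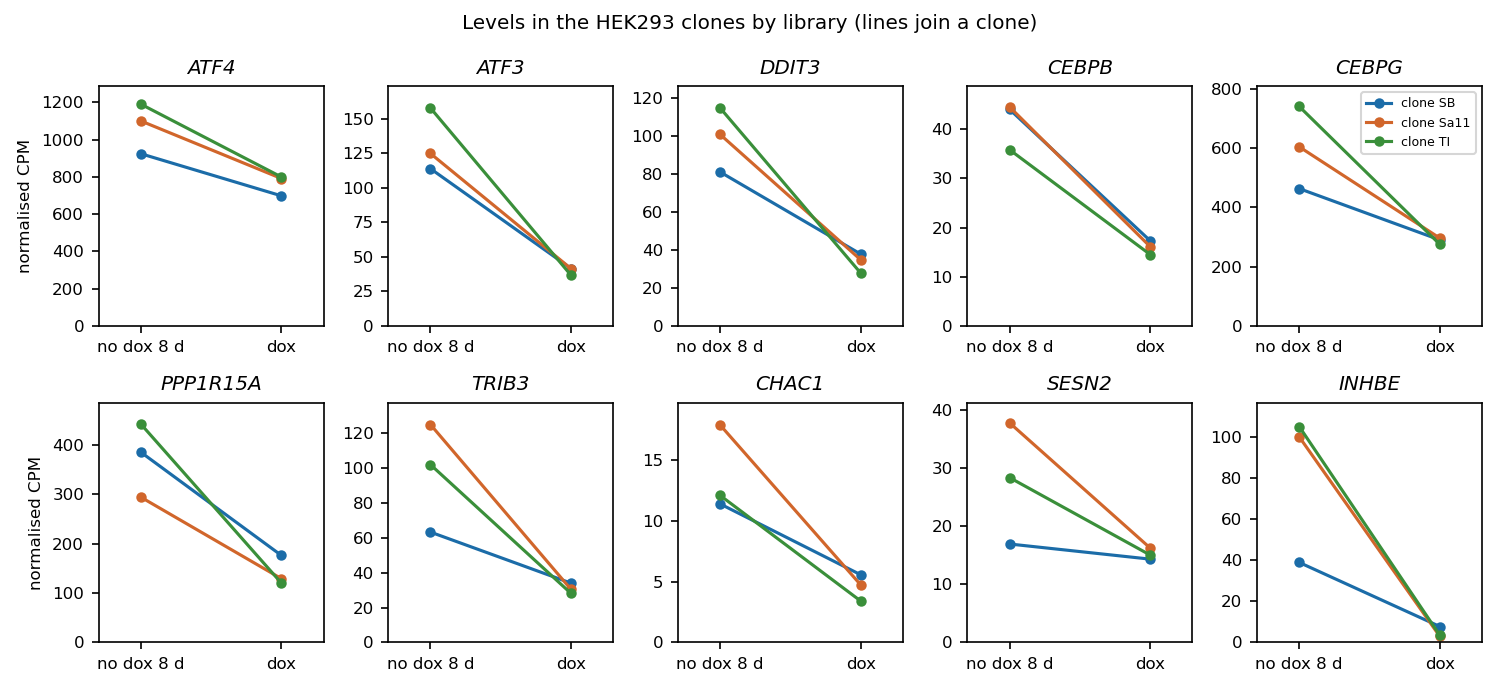
Normalised CPM (y axis, from 0) of the 10 genes in HEK293 clones SB, Sa11 and TI, 8 days without doxycycline (left) and with it (right), with a line joining the libraries of a clone. Every line slopes down to the right, steepest in relative terms for INHBE.

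Per transcript length, ATF4 was the highest of the 10 in both lines, at 750 ± 131 TPM after 6 days of IAA and 296 ± 25.5 TPM in 2-day DMSO, and at 1070 ± 40.7 TPM in HEK293 without doxycycline and 782 ± 17.8 TPM with it (SD, n = 3 each). PPP1R15A came next after 6 days of IAA, at 179 ± 66.9 TPM, though it was at 19.8 ± 3.21 TPM in 2-day DMSO. CEBPG (33.9 ± 5.15) stood above it in 2-day DMSO. TRIB3 (26.4 ± 4.52) and CEBPB (23.5 ± 2) had higher means there, but their libraries overlapped those of PPP1R15A (17.3 to 23.5 TPM). TRIB3 and CEBPB did not differ beyond their spread. INHBE was the lowest of the 10 after 6 days of IAA and in 2-day DMSO. In HEK293 with doxycycline it had 3.82 ± 2.06 TPM, not apart from CHAC1 at 4.7 ± 1.68 TPM beyond their spread.

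Across the 32 degron libraries, which share clones, treatments and library sets, the members varied together to unequal degrees. As a description, Pearson's r of log2 CPM was 0.92 for DDIT3 with PPP1R15A, 0.86 for ATF4 with TRIB3 and -0.41 for SESN2 with INHBE. The 5 other genes most like the mean profile of the members were EIF1 (r = 0.88), SARS1 (0.87), GTPBP2 (0.87), FAM50A (0.86) and STC2 (0.86), over those 32 libraries. At 6 days of IAA these 5 rose by 0.70 ± 0.15 (SARS1) to 1.87 ± 0.13 (GTPBP2) over 2-day DMSO. They were picked for likeness over libraries that include these groups, so their rise follows from that choice.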

How the data were processed

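Poly-A enriched HCT116 RNA and ribosome-depleted HEK293 RNA were sequenced, per the labels' protocols. The authors deposited estimated counts per gene and TPM per gene for each cell line. The submitters' processing notes list Salmon 1.10.2, kallisto 0.50.0, DESeq2 and GRCh38 but give them no role. Neither the annotation nor the strand setting is stated in the sources used here. All per-sample columns matched 1 sample by name.

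Estimated counts were rounded to whole numbers. In R 4.3.3, edgeR 4.0.16 (TMM, filterByExpr by group, quasi-likelihood, Benjamini-Hochberg at 0.05) had 1 fit per experiment. The degron fit used 32 libraries in 12 groups and tested 18877 genes, the Ku86flox/- fit 8 libraries and 16726 genes, and the HEK293 fit 6 libraries and 15549 genes, leaving 20, 4 and 4 residual degrees of freedom. Adjusted p-values are over all genes tested. Changes are log2 fold changes, with a standard error taken as the change over the root of its quasi-F. Reads carried no molecular identifiers, so counts are not independent molecules. On simulated data the fits of 8 and 6 libraries called somewhat more unchanged genes than the threshold allows, so calls near it there are less firm. Differences between responses were contrasts of 4 groups.

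Members and lists were chosen with earlier results of these data known. All members were described in every comparison, and of each list up to 3 genes per direction with the largest change among those called. The eIF2 kinases at 4 days of IAA, EIF2AK2 in the MAVS-/- and HEK293 comparisons, and the named genes overlapping a member were given whatever their result. The same clone served both arms of the degron, MAVS-/- and HEK293 comparisons, so the clone pairs the libraries there by design. Across genes, deviations of same-clone libraries from their group means correlated at 0.0236 to 0.0666 at 4 days of IAA. They ran from 0.245 to 0.467 in HEK293 and from 0.0621 to 0.273 in MAVS-/- clones. The Ku86flox/- libraries share a replicate number only. Alternatives were DESeq2 1.42.0, RLE factors, limma 3.58.1 on log2(TPM + 1), omission of the count filter or of each library in turn, a block for clone or number, and fits of the compared groups alone. The 1-day DMSO group as control, the comparison of DMSO groups and the fits without clone 13 were added after seeing the data. Promoter windows and coordinates are from RefSeq (GRCh38.p14).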

Additional observations from a re-analysis of the deposited data

Results flagged for a closer look

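Responses that differed between groups by a test of the difference itself came from the Ku86flox/- cells and from the CDK4/6 inhibitor. Between Cre cells and cells without Cre, the 4OHT response differed by 2.24 for ATF3, 1.22 for SESN2, 1.12 for PPP1R15A, 0.73 for DDIT3, -0.33 for TRIB3, -0.37 for CEBPB and -0.45 for CEBPG on the log2 scale (edgeR adjusted p under 0.05 each). Of all genes, 18.8% differed upward and 22.4% downward. The TRIB3 and CEBPB calls were lost in several fits that left out 1 library, and that of TRIB3 also under DESeq2 (-0.31). In cells without Cre, 4OHT itself lowered ATF3 (-1.45), PPP1R15A (-1.56) and DDIT3 (-0.56). At 4 days the IAA response of PPP1R15A differed by -1.21 with the inhibitor minus without it. That call was lost when any of 5 libraries was left out, and against 1-day DMSO the difference was -0.21. Its controls are 4-day inhibitor and 2-day DMSO cultures, so inhibitor and age of the control cannot be told apart.

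A group of 5 members moved one way in every Cre library pair and the other way in every clone of the 6-day IAA and HEK293 comparisons. They were picked by that pattern, and the share of all genes that show it was not computed. The Cre pairs share a replicate number only, and 26.4% of all genes were called higher and 27.5% lower in Cre cells. These differences between cell systems were not tested. At 4 days of IAA the changes were 0.68 (ATF4), 0.71 (CEBPB), 0.53 (CEBPG), 2.34 (PPP1R15A) and 0.28 (TRIB3, not called). At 2 days PPP1R15A was higher (1.42). ATF4 (-0.16) and CEBPG (-0.40) were then lower in 3 of 3 clones, and CEBPB (-0.19) and TRIB3 (-0.16) in 2 of 3, without a call. The IAA values that follow are at 6 days. ATF4 changed by -0.42 with 4OHT in Cre cells, by 1.44 at 6 days of IAA and by 0.49 in HEK293 without doxycycline. CEBPB changed by -0.68 in Cre cells, 1.27 with IAA and 1.38 in HEK293. CEBPG changed by -0.44 in Cre cells, 1.32 with IAA and 1.07 in HEK293. PPP1R15A changed by -0.44 in Cre cells, 2.98 with IAA and 1.40 in HEK293, and TRIB3 by -0.48 in Cre cells, 1.72 with IAA and 1.65 in HEK293. In cells without Cre, PPP1R15A changed by -1.56, more than in Cre cells, CEBPB by -0.31 and ATF4 by -0.26, so edgeR called these 3 lower there too. Limma did not call CEBPB (-0.11) or ATF4 (-0.12) in cells without Cre. The agents, days and library types differ between these systems.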

How the results depend on the processing

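Of 2397 changes of single members recomputed under an alternative, 2204 kept their side of the threshold, 105 lost the call, 79 gained one and 9 turned direction with a call on either side. In a further 139 the sign changed with no call before or after, counted among the 2204. The direction turned for ATF4 at 4 days of IAA (-0.16), ATF3 at 4 days (-0.01), ATF4 (-0.74) and PPP1R15A (-0.09) with the inhibitor at 2 days, and ATF3 (-1.08) and PPP1R15A (-0.90) with the inhibitor at 4 days, and DDIT3 in the MAVS difference (0.99), all against 1-day DMSO. Under limma it turned for ATF4 with the inhibitor at 2 days (-0.44) and CEBPB between the DMSO groups (0.69). The cause was not tested.

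Counts of members called that moved by over 1.5 times were as follows. Against 1-day DMSO they were 4 at 2 days of IAA, 1 for the inhibitor at 2 days, 8 for it at 4 days, 3 and 0 for the inhibitor difference at 2 and 4 days and 2 for the MAVS difference. With the compared groups alone they were 2 at 1 day of IAA, 4 at 2 days, 3 for 4 over 2 days, 1 for 6 over 4 days, 4 and 1 for the inhibitor at 2 and 4 days, and 1 in MAVS-/- clones. With no count filter they were 1 at 1 day of IAA, 4 and 1 for the inhibitor at 2 and 4 days, 5 for IAA with the inhibitor at 4 days, 2 for the inhibitor difference at 4 days and 1 for the MAVS difference. DESeq2 gave 2 for that inhibitor difference and 1 for the MAVS difference. Limma gave 4 and 3 for the inhibitor at 2 and 4 days, 1 for the MAVS difference, 2 between DMSO groups and 2 for 4OHT without Cre. With the replicate block the counts were 4 and 2 for the inhibitor at 2 and 4 days and 1 for the MAVS difference, and the block lost 0 of 187 values a call and gained 7, all given above. Without clone 13 they were 2 in MAVS-/- clones and 3 for the MAVS difference.

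Leaving out 1 library gave 1 to 2 calls for the inhibitor at 2 days, 3 to 6 in MAVS-/- clones, 0 to 2 for the inhibitor difference at 4 days, 0 to 4 for the MAVS difference, 3 to 7 between DMSO groups, 3 to 7 for 4OHT without Cre and 8 to 10 in HEK293. An arm of 2 then keeps a lone library, assumed to vary like the other groups. In HEK293 the ATF4 call was also lost with RLE factors (edgeR adjusted p = 0.0584) and no filter (0.0712), and that of SESN2 under limma (0.115). CHAC1 at 11 to 142 counts and INHBE at 0 to 32 in the degron libraries are limited by depth.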
